A study of Mus musculus with 17 samples.

Results

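Mouse embryonic stem cells of line R1 were followed by RNA sequencing as they left a medium with Wnt pathway activation and entered one in which Wnt ligand secretion is blocked. The course consists of 5 of the 17 libraries of the series, chosen by their labels as the R1 time course samples of day 0 in L2i and of days 1, 2, 3 and 4 in LIM. L2i held LIF, the GSK3 inhibitor CHIR99021 at 3 µM and the MEK inhibitor PD325901 at 0.1 µM. LIM held LIF, PD325901 at 0.1 µM and 2 µM IWP2, which blocks the acylation that Wnt ligands need for secretion. LIF and the MEK inhibitor were thus shared by all 5 samples. CHIR99021 was withdrawn and IWP2 added together, so their parts cannot be told apart in the course. The cells were all of passage 32 and grew without serum in N2B27 on plastic coated with gelatin and fetal calf serum. They had spent 5 passages in 2i at day 0, 4 for days 1 to 3 and 3 for day 4, so the passages in 2i differ between the days. Whether the days were separate cultures is not stated in the labels.

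Each day has 1 library, so no difference along the course has a replicate check and none was tested. A gene is counted as higher or lower where its log2 CPM, the count scaled to a common library total, differs by at least 1, which is 2-fold. "Rose" and "fell" are used below for differences of that size from day 0, and for the course of genes that reach one. Intervals on ratios are 95% and cover counting error alone. The same media were also compared in a separate set with the lines R1 and CGR8 (n = 2 in each medium, 1 library per line), in which the LIM cells had spent 4 (R1) and 6 (CGR8) passages in LIM on gelatin with basement membrane extract. That set gives a test, but coating, sequencing protocol and time in LIM differ from those of the course and cannot be told apart there.

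In naive embryonic stem cells, GSK3 inhibition stabilises beta-catenin, which acts with TCF/LEF factors on target genes and relieves repression by TCF7L1. LIF acts through STAT3 and sustains naive factors such as TFCP2L1 and KLF4. On the way from the naive state to the early post-implantation epiblast, cells lose naive factors, gain OTX2, POU3F1 and FGF5, and raise the de novo DNA methyltransferases. FGF signalling through MEK and ERK takes part in that exit. A MEK inhibitor was in the medium on every day of the course, and ERK activity was not measured.

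The 5 libraries held 12889029 to 13584647 gene counts and 20684 to 21513 detected genes. Their core pluripotency genes were high throughout. Pou5f1 was at 1380, 1610, 1310, 1560 and 1640 CPM on days 0 to 4, and none of the 10 core genes fell past 2-fold on any day. Markers of fibroblasts and definitive endoderm were low or absent, while the neural list, described below, was not. The fibroblast list summed to 13.4 to 19.1 CPM per library, with Dcn and Postn at 0 counts in all 5, and Foxa2, a marker of definitive endoderm, was at 0.0 to 0.153 CPM. In bulk RNA, fewer cells of a type and less RNA per cell cannot be told apart, nor can a change in some cells and a change in all.

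A pair of libraries needs a remark before the results. The LIM day 1 library held more RNA that poly(A) selection should remove. The gene models Gm42418, Lars2, Mir6236, Gm26917 and Gm15564, which overlap ribosomal RNA sequence and were picked after their values were seen, took 2.71% of its counts, against 0.403 to 0.614% in the other 4. Rn7sk, the 7SK RNA, was at 33.1 CPM on day 1 and at 2.34 to 5.93 CPM on the other days. Histone and small RNA genes together took 0.146% of counts on day 1 and 0.0798 to 0.115% otherwise. The share of this RNA in the day 1 values of other genes was not tested, but taking these genes out of the scaling left each count of genes below within 1.5 times.

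The other library lies outside the course but bears on day 1. The library labelled LFAI day 1 comes from R1 cells moved from L2i into LIF, FGF2 at 12 ng/ml, Activin A at 20 ng/ml and 2 µM IWP2, without the MEK inhibitor. It lay close to LIM day 1. Among 12079 genes with 5 CPM or more in a course library, 86 (0.712%) differed past 2-fold between them, fewer than between any neighbouring LIM days, and 1783 (14.8%) differed between the libraries labelled LFAI day 1 and LFAI day 2. With 1 CPM or more, 602 of 15682 genes (3.84%) differed from LIM day 1, and fewer, 520 (3.32%), from LIM day 2. With 5 CPM or more, 117 (0.969%) differed from LIM day 2, so the library lay close to both days. ERK targets, which FGF2 induces, were at the LIM day 1 level in it and far below LFAI day 2. Dusp6, an ERK phosphatase under ERK control, was at 9.22 CPM in it, 9.89 CPM on LIM day 1 and 78.3 CPM on LFAI day 2. Spry4, a feedback inhibitor, was at 2.85, 2.22 and 85.7 CPM in the same libraries. The reason was not tested, and the library is not counted as a replicate here. Its values are set beside those of LIM day 1 where they bear on a gene, since its ribosomal gene models took only 0.318% of counts.

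More genes passed 2-fold in the first day than in any later step. Of 15682 genes with at least 1 CPM in a course library, 837 (5.34%) were higher and 701 (4.47%) lower on day 1. On day 2, 1055 (6.73%) were higher and 791 (5.04%) lower. On day 3 the counts were 1142 (7.28%) and 1121 (7.15%), and on day 4 they were 1282 (8.17%) and 1133 (7.22%). The counts thus grew on each day, while the median over all genes stayed within 0.013 of 0 on the log2 scale.

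Steps between neighbouring days were smaller than the first. Past 2-fold were 737 genes (4.7%) from day 1 to 2, 741 (4.73%) from day 2 to 3 and 647 (4.13%) from day 3 to 4. Low counts make up much of this. Among genes with 5 CPM or more, 725 (6.0%) passed 2-fold on day 1, then 191 (1.58%), 188 (1.56%) and 124 (1.03%) on the later steps. As a yardstick for single libraries, R1 and CGR8 in the other set differed past 2-fold for 11.5% of 15525 genes in L2i and for 10.3% in LIM, a contrast that also holds the difference of line and passage.

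**Figure D1:**
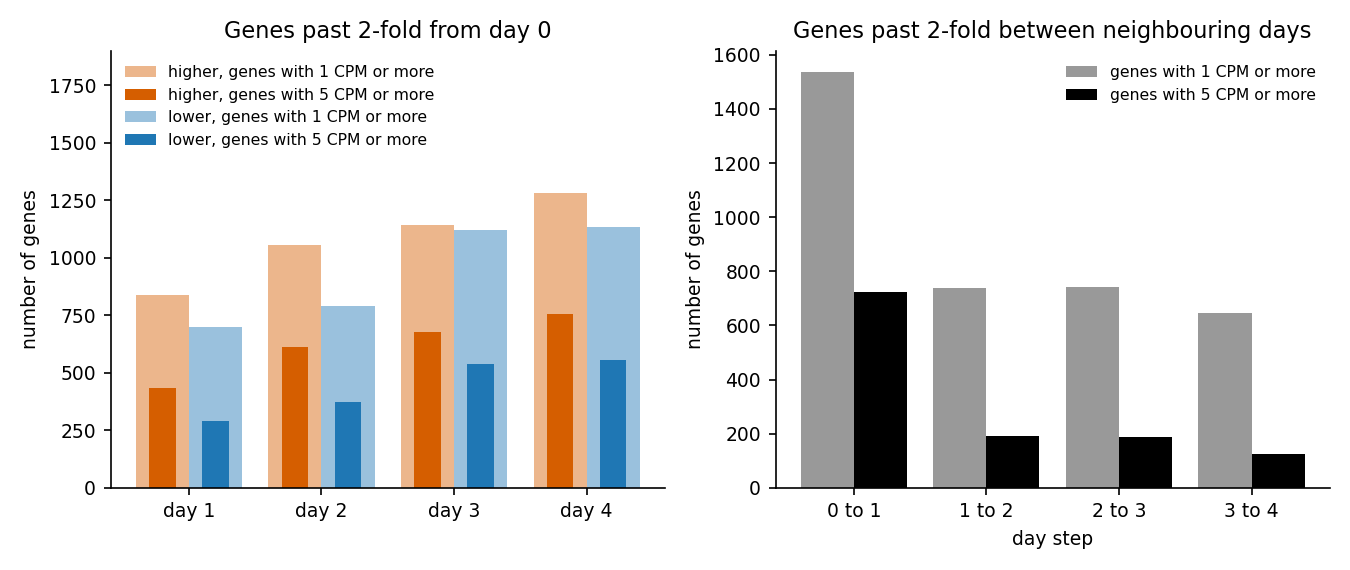
Number of genes past 2-fold on each LIM day from day 0 (left; orange higher, blue lower; wide pale bars for genes with 1 CPM or more, narrow dark bars for 5 CPM or more) and between neighbouring days (right). The step from day 0 to day 1 is the tallest on the right, with 725 genes at 5 CPM or more against 191, 188 and 124 on later steps.

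For the 1282 genes higher on day 4, the median gene had reached 59.1% of its day 4 log2 change on day 1, 74.8% on day 2 and 86.6% on day 3. The 1133 lower genes had reached 52.8%, 64.8% and 85.8%. At least 50% of the change was first reached on day 1 by 771 of the higher genes (60.1%), on day 2 by 310, on day 3 by 126 and on day 4 by 75. Of the lower genes these were 603 (53.2%), 247, 186 and 97. On day 3, 900 of the higher genes (70.2%) and 643 of the lower (56.8%) were within 0.5 log2 of day 4. With 5 CPM or more these plateau shares were 81.5% and 70.4%. Day 4 chose these genes, so its own level is no finding, and the day 1 and day 4 differences share the day 0 library.

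Genes past 2-fold on day 1 were followed forward, as a description, since every day is set against the same day 0 library and an unusual day 0 value would appear on all of them. Of the 837 genes higher on day 1, 580 (69.3%) were still past 2-fold on day 4, and 474 were so on every later day. Of the 701 lower genes, 462 (65.9%) and 365 were. Another 140 higher and 142 lower genes were past 2-fold on day 1 and on no later day.

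The replicated set gives an outside reading of these groups. There edgeR's quasi-likelihood test called 1750 genes as higher in LIM (11.3%) and 1212 as lower (7.81%), at an adjusted p under 0.05. Leaving out 1 library lowered these counts, to 934 higher without R1 in L2i and to 505 lower without R1 in LIM. Leaving out any of the 4 libraries moved at least 1 of these counts by over 1.5 times. Among genes tested in it, 612 of 1161 that were higher on day 4 (52.7%) were called higher and 6 lower. Of 979 lower genes, 307 (31.4%) were called lower and 45 higher. Counted the other way, the 612 are 35.0% of the set's higher calls and the 307 are 25.3% of its lower calls. Of genes past 2-fold on day 1 and every later day, 235 of 431 higher (54.5%) and 143 of 324 lower (44.1%) were called in the same direction. Of those past 2-fold on day 1 alone, 13 of 93 (14.0%) and 3 of 120 (2.5%) were.

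Most listed targets of beta-catenin with TCF/LEF fell within the first day. Of 18 tested genes of the Wnt target list, 12 were lower on day 1, beside 4.47% of all genes, and none was higher. On days 2, 3 and 4, 11, 9 and 9 were lower. The list median was -1.92 log2 on day 1 and -1.27, -1.02 and -1.01 afterwards, with all genes at a median of 0.0 to 0.01. With genes at 0 counts set to a floor of 3, the day 1 median was -1.82 and the others stayed. Of the 18, the replicated set called 10 lower and 2 higher.

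The promoter of Sp5, a transcription factor gene directly under TCF/LEF control, and that of Tnfrsf19, a receptor gene, are shown because they were the Wnt list windows that hold the TCF/LEF letters. They are the 250 bases before the RefSeq start in GRCm38.p6, chr2:70474673-70474922 on the plus strand and chr14:61037988-61038237 on the minus strand, written along the gene, with a match to CTTTGAT on either strand in capitals.
Sp5: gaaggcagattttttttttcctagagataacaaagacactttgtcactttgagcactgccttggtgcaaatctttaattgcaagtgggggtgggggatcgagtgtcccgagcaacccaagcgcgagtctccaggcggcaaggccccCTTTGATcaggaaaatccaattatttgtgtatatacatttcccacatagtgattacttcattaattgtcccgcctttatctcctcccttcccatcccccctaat
Tnfrsf19: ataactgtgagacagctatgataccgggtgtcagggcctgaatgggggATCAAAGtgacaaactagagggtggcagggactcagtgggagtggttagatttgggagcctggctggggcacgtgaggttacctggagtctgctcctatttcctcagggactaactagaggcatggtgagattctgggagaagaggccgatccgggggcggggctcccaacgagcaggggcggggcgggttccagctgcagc
The match begins 104 bases before the start in Sp5 and 202 bases before it in Tnfrsf19. Windows of 300 bases, from 250 before to 50 after the start, were given for 11 of the 19 list genes. Of these, 2 (18.2%) hold the letters, as do 4.29% of 27025 genes with a window. The match says only that these letters are present.

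Sp5 went from 23.1 CPM on day 0 to 0.0 on days 1 and 2, 0.153 on day 3 and 0.0755 on day 4. Every LIM day lay below day 0, by at least 97.5-fold on day 1 against a floor of 3 counts. Tnfrsf19 was at 71.5, 34.7, 32.1, 29.7 and 25.5 CPM, 2.8-fold lower on day 4 (interval 2.47 to 3.18). So of these genes, Sp5 was gone on day 1. Tnfrsf19 fell by less and was 1.36-fold lower on day 4 than on day 1 (1.18 to 1.57).

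Other Wnt targets differed in how completely they went. Axin2, the negative feedback scaffold of the pathway, was at 123, 15.3, 9.9, 8.25 and 6.72 CPM, an 8.06-fold drop on day 1 (6.94 to 9.4) and 18.3-fold on day 4 (14.8 to 22.9). The library labelled LFAI day 1 held it at 14.0 CPM. Axin2 had covered 72.0% of its log2 change on day 1 and was 1.54-fold lower again on day 2 (1.23 to 1.94). The later steps were 1.2-fold (0.924 to 1.56) and 1.23-fold (0.919 to 1.64) lower, with intervals that include no change. The replicated set had Axin2 lower by a log2 of -2.89 (SE 0.23, adjusted p = 0.00021).

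Cdx1, a homeobox gene of the posterior embryo, went from 35.0 CPM to 0.0, 0.15, 0.0 and 0.0755 CPM. Cdx2, its relative, was at 3.8 CPM on day 0 and at 0 counts on every LIM day. T, the mesoderm factor brachyury, was at 12.6 CPM and then at 0.475, 0.15, 0.229 and 0.528 CPM. All 3 were therefore at their low level on day 1. Rnf43, a ubiquitin ligase that removes Wnt receptors, showed the same course, from 10.9 CPM to 0.316, 0.225, 0.306 and 0.0755 CPM. Nkx1-2, a homeobox gene of the caudal epiblast, took longer. It was at 91.7, 3.96, 1.88, 0.611 and 0.604 CPM, with 64.7% of its log2 change on day 1. Days 3 and 4 held 8 counts each, too few to show a plateau (1.01-fold, 0.331 to 3.09).

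Some Wnt genes fell and came back. Lef1, itself a TCF/LEF factor, was at 17.8, 4.19, 6.98, 11.3 and 18.6 CPM. It fell 4.25-fold on day 1 (3.14 to 5.83), climbed on each later step and on day 4 was 1.05-fold its starting level (0.874 to 1.25). It was the 1 gene, of 9100 with a mean of 10 CPM or more, that was past 2-fold lower on day 2 or 3 and more than 2-fold above that on day 4. Lef1 was higher in LIM in the replicated set, by a log2 of 2.66 (SE 0.44, adjusted p = 0.0045). Myc, a growth regulator under several pathways, was at 6.5, 0.712, 2.25, 2.67 and 3.62 CPM, 9.12-fold lower on day 1 (4.6 to 20.6) and 1.79-fold on day 4. It too was higher in the replicated set (log2 1.6, SE 0.31, adjusted p = 0.0082). Nkd1, a feedback inhibitor, was 3.26-fold lower on day 1 and 1.65-fold on day 4.

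Other list members did not follow. Notum, which encodes a secreted enzyme that inactivates Wnt ligands, stayed at 99.5 to 110 CPM on all 5 days, although it was lower in the replicated set (log2 -1.19, SE 0.16, adjusted p = 0.0016). Tcf7 was at 110 CPM and then at 75.0 to 78.6 CPM, and Znrf3 at 40.1 and then 29.8 to 32.6 CPM. Ccnd2, which encodes cyclin D2, went the opposite way and late, with 0.365, 0.633, 0.975, 5.58 and 11.2 CPM, and was higher in the replicated set too (log2 5.6, SE 0.62, adjusted p = 0.00081). The pathway's own TCF and destruction complex genes moved little, with 1 of 12 lower on days 1 and 2 (Lef1) and none past 2-fold on day 4. Tcf7l1, the repressor that beta-catenin relieves, was at 90.1 CPM on day 0 and at 140 to 160 CPM in LIM, a difference below 2-fold.

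**Figure D2:**
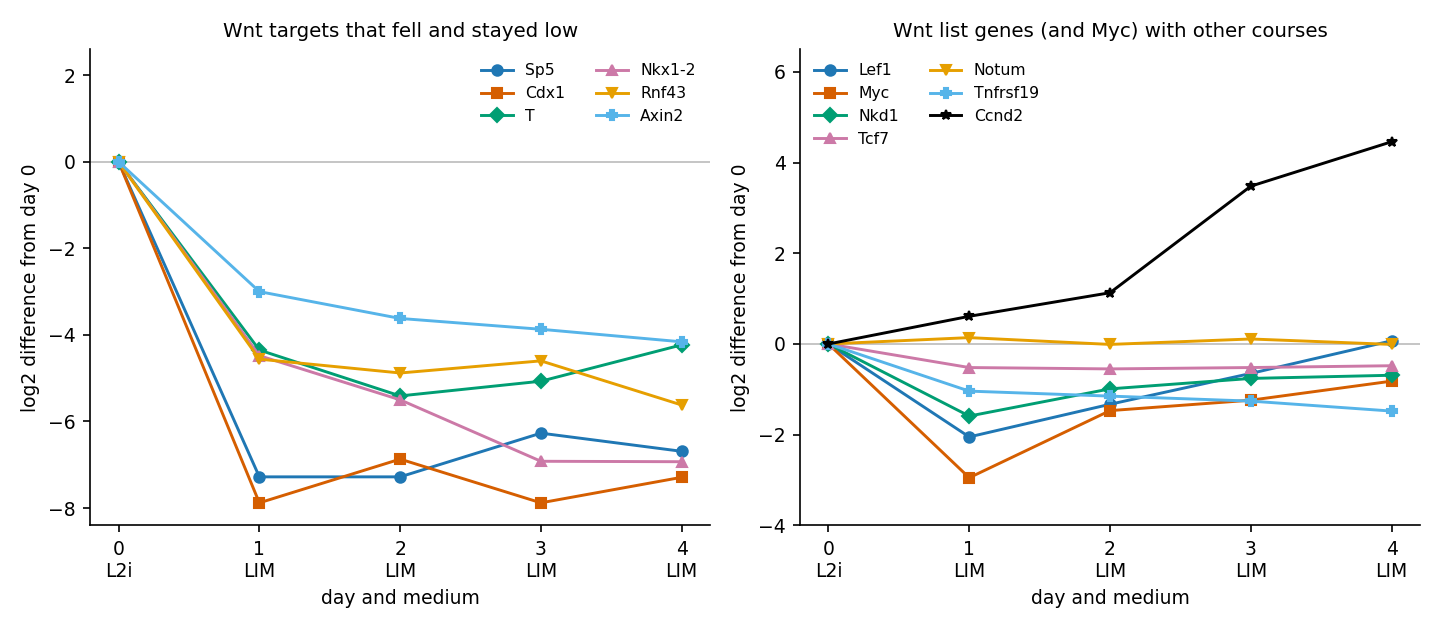
Log2 difference from day 0 by day for 6 Wnt targets that fell and stayed low (left) and for 6 other list genes with Myc (right); each point is 1 library, and values of genes near 0 counts depend on the prior count of 2. On the left all 6 are at or below -3.0 from day 1 on, while on the right Lef1 dips to -2.05 and returns to 0.07 and Ccnd2 climbs from day 2.

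Naive pluripotency genes stayed mostly in place. Of 18, 1 was higher and 2 were lower on days 1, 2 and 3, and 1 was higher and 3 were lower on day 4. Over all genes 5.34% were higher and 4.47% lower on day 1, and 8.17% and 7.22% on day 4. Their median moved from 0.03 on day 1 to -0.28 on day 4. Nanog was at 823, 977, 1010, 900 and 840 CPM, Esrrb at 775, 764, 678, 712 and 642, and Zfp42, also called Rex1, at 874, 1180, 1120, 1220 and 1200. None of these passed 2-fold on any day. Klf2 ranged from 147 to 168 CPM.

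Tfcp2l1, a naive factor downstream of both STAT3 and the GSK3 inhibitor, had the largest difference of the list on day 4. On days 1 and 2 Gbx2 differed more. Tfcp2l1 was at 1230, 499, 433, 344 and 274 CPM, 2.47-fold lower on day 1 (2.4 to 2.54) and 4.5-fold on day 4 (4.34 to 4.66), with a fall on each step. The library labelled LFAI day 1 held 525 CPM. The replicated set had it lower by a log2 of -3.42 (SE 0.45, adjusted p = 0.0016). Klf4, another naive factor, drifted from 147 to 97.2, 94.1, 87.5 and 70.4 CPM and passed 2-fold on day 4 alone (2.09-fold, 1.93 to 2.26). Gbx2, a homeobox gene that acts below STAT3, fell at once and in part returned, at 15.1, 4.27, 3.98, 6.95 and 7.25 CPM. Fgf4, the autocrine ERK ligand of these cells, rose at once and stayed, at 205, 441, 473, 487 and 473 CPM. It was not called in the replicated set (log2 -0.44, SE 0.2, adjusted p = 0.17).

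The LIF/STAT3 list, which shares Tfcp2l1, Klf4 and Gbx2 with the naive list, had 2 of 12 lower on days 1 to 3 and 4 on day 4, with medians from -0.28 to -0.68, beside 4.47 to 7.22% of all genes lower. Junb was higher on day 3 alone. Stat3 itself was at 125, 92.2, 83.6, 77.9 and 60.8 CPM and so passed 2-fold lower on day 4 (2.05-fold, 1.88 to 2.23). Socs3, the direct feedback target of STAT3, was at 15.7, 20.6, 15.8, 10.7 and 8.61 CPM, within 2-fold on every day.

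Day 4 of the course was not at the level of the replicated set. That set differs in time in LIM, coating and sequencing protocol and also holds CGR8, and these cannot be told apart. The replicated set called 10 of the 18 naive genes lower by edgeR, with a median of -1.3. None was higher by edgeR, at an unadjusted p under 0.05 or by DESeq2. Nanog was lower there by a log2 of -1.8 (SE 0.31, adjusted p = 0.0049) against 0.03 on day 4, and Esrrb by -1.31 (SE 0.29, adjusted p = 0.015) against -0.27. The Esrrb call was lost without either L2i library or without R1 in LIM, at adjusted p = 0.053 to 0.095. Tet2, which encodes a methylcytosine dioxygenase, was lower by -1.6 (SE 0.29, adjusted p = 0.0066) against -0.06. These differences between sets were not tested.

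The number of higher genes of the early post-implantation epiblast grew day by day. Of 19, 5 were higher on day 1, 7 on day 2, 10 on day 3 and 11 on day 4, beside 5.34%, 6.73%, 7.28% and 8.17% of all genes. The lower genes were Lef1 on day 1, Lef1 and Etv4 on day 2 and Etv4 alone on days 3 and 4. The list median was 0.61, 0.72, 1.26 and 1.37, or 0.31 and 0.59 on days 1 and 2 with genes at 0 counts set to a floor of 3. The replicated set called 17 of the 19 higher and 1 lower, with a median of 2.66.

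Otx2, the homeobox factor of the exit from the naive state, was the earliest. It was at 13.6, 83.2, 119, 129 and 144 CPM, 6.1-fold higher on day 1 (5.21 to 7.16) and 10.6-fold on day 4 (9.08 to 12.3), with 76.6% of its log2 change on day 1. The library labelled LFAI day 1 held 87.0 CPM. Zic2 and Zic5, zinc finger factors of the epiblast, had covered 82.5% and 95.5% of their change on day 2, at 22.0, 45.3, 50.6, 68.4 and 60.2 CPM and at 19.3, 38.1, 53.2, 50.9 and 55.8 CPM.

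Fgf15 and Fgf5 came later, while Pou3f1 moved on day 1 and again after day 2. Fgf15, a secreted FGF, was at 0.803, 1.03, 3.0, 11.2 and 18.1 CPM, with 7.2% of its change on day 1 and 83.7% on day 3. Fgf5, the classic ligand marker of the epiblast, was at 0.0, 0.0791, 0.225, 1.07 and 1.74 CPM, so at least 7.93-fold higher on day 4 against a floor of 3 counts. Pou3f1, also called Oct6, was at 1.02, 2.22, 2.4, 5.27 and 7.4 CPM. It was 2.17-fold higher on day 1 (1.1 to 4.46), with 37.7% of its log2 change, while the library labelled LFAI day 1 held 1.24 CPM. All 3 genes had their highest value of the course on day 4. The step from day 3 to 4 was 1.62-fold for Fgf5 (interval 0.801 to 3.41), and Pou3f1 moved by 0.48 log2, inside the 0.5 log2 used here for a plateau. In the replicated set Fgf5 was higher by a log2 of 7.78 (SE 0.82, adjusted p = 0.00069) and Pou3f1 by 4.9 (SE 0.56, adjusted p = 0.0009). Etv4, an ETS factor under ERK control, was the exception, at 102, 57.9, 45.2, 35.1 and 35.3 CPM, a fall that stopped on day 3.

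The de novo DNA methylation genes differed in timing. Dnmt3l, the catalytically inactive cofactor, was at 24.2, 53.4, 78.7, 144 and 190 CPM, 7.83-fold higher on day 4 (6.98 to 8.81) and rising on each step. Dnmt3a was at 102, 184, 223, 287 and 318 CPM, 3.11-fold higher on day 4 (2.93 to 3.31). Dnmt3b was at 118, 96.4, 111, 169 and 183 CPM, and so stayed within 2-fold of day 0, with its upward move between days 2 and 3. Lin28a, an RNA-binding protein gene, took the same late turn, at 95.9, 65.5, 86.2, 163 and 186 CPM. The replicated set had several passages in LIM and also another coating and sequencing protocol. There Dnmt3b was higher by a log2 of 3.06 (SE 0.27, adjusted p = 0.00032) and Lin28a by 2.69 (SE 0.21, adjusted p = 0.00021). Dnmt1, the maintenance enzyme, stayed at 569 to 623 CPM.

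**Figure D3:**
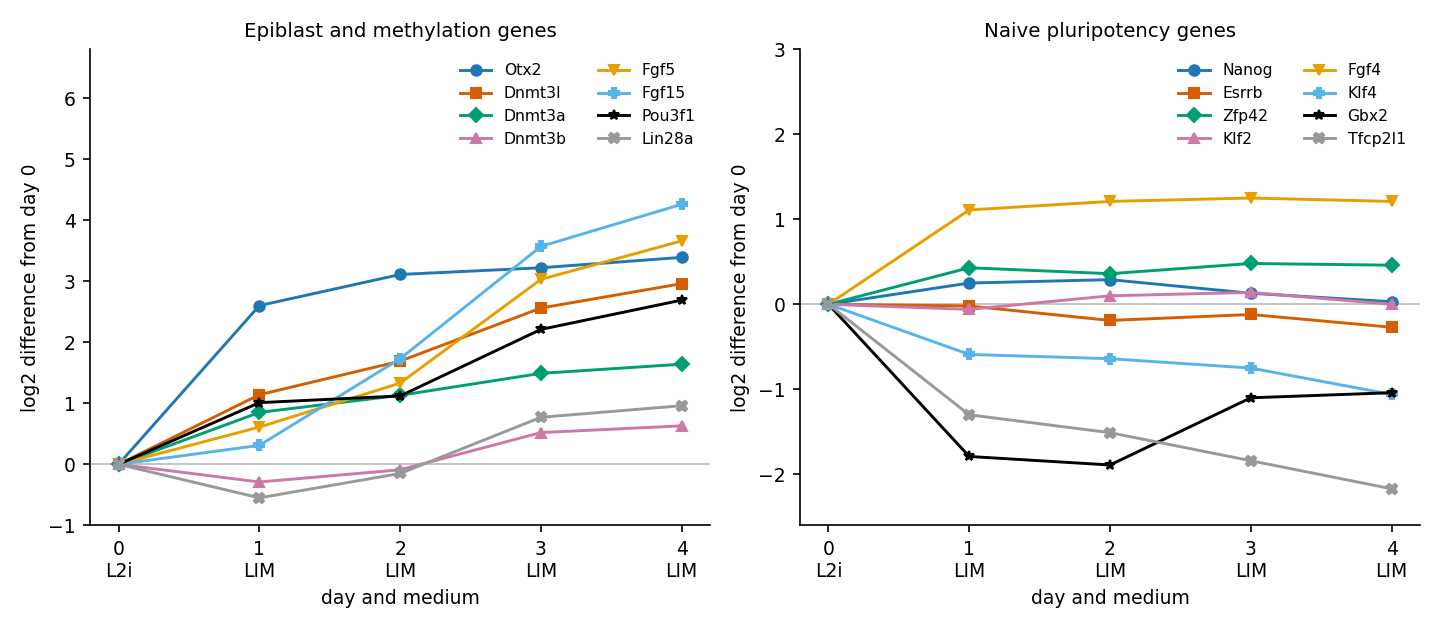
Log2 difference from day 0 by day, 1 library per point, for epiblast and methylation genes with Lin28a (left) and naive pluripotency genes (right). Otx2 is at 2.6 on day 1, while Fgf15, Fgf5 and Pou3f1 gain most between days 2 and 3; on the right Nanog, Esrrb, Zfp42 and Klf2 stay within 0.5 of 0 and Tfcp2l1 falls to -2.17.

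With the MEK inhibitor present throughout, the ERK list had members in both directions. Of 17, 2 were higher and 3 lower on day 1, and 4 were higher and 3 lower on day 4, with medians of 0.06 and -0.03. Over all genes these shares were 5.34% and 4.47% on day 1 and 8.17% and 7.22% on day 4. Dusp6 was at 4.74, 9.89, 11.8, 11.5 and 14.6 CPM, Dusp5 at 2.92, 9.02, 8.7, 7.26 and 11.3, and Dusp4 at 1.17, 1.9, 2.48, 3.44 and 4.91. These ERK phosphatase genes thus rose by day 4, 3.09-fold for Dusp6 (2.32 to 4.15). Spred1, an inhibitor of RAS signalling, fell, at 49.7, 22.7, 31.1, 17.3 and 17.1 CPM. Fos fell on day 4 alone, from 1.46 to 0.604 CPM.

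Among Nodal/Activin targets, 2 of 10 were higher on days 1 to 3 and 3 on day 4, beside 5.34 to 8.17% of all genes. Lefty1, a Nodal antagonist, was at 28.2, 74.4, 80.6, 74.6 and 105 CPM. The library labelled LFAI day 1, with Activin A in its label, held 79.1 CPM. Ltbp1, which anchors latent TGF-beta, was at 9.63, 22.2, 27.4, 26.0 and 27.9 CPM, flat from day 2, and Skil, a SMAD co-repressor, at 87.4, 105, 165, 155 and 188 CPM. Nodal itself was at 94.7 to 114 CPM. In the replicated set Ltbp1 and Skil were higher (log2 1.66 and 1.85, adjusted p = 0.0015 and 0.0056), while Lefty1 was not called (log2 -0.38, SE 0.69, adjusted p = 0.74).

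Of 10 BMP targets, 4 were lower on days 1, 3 and 4, 3 on day 2 and none higher, beside 4.47 to 7.22% of all genes lower. The other members stayed within 2-fold. Id3, an inhibitor of bHLH factors, was at 10.7, 2.22, 1.35, 3.21 and 2.64 CPM. Bmp4, the ligand, was at 10.4, 3.32, 3.08, 4.05 and 3.47 CPM, and Id1 at 2.99, 1.27, 0.75, 1.15 and 0.528 CPM. These 3 fell on day 1 and stayed low. In the replicated set 2 of the 10 were called higher and 1 lower, and Id1 was higher in LIM there (log2 2.78, SE 0.35, adjusted p = 0.0014). The list median was 0.81 in that set and -0.79 on day 4 of the course. At an unadjusted p under 0.05, edgeR gave 6 higher and 1 lower in the set. The difference between sets was not tested.

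The median log2 difference of the 24 cholesterol synthesis genes was 0.49, 0.52, 0.48 and 0.56 on days 1 to 4, below 2-fold. On days 1 and 2, 1 of the 24 was higher, beside 5.34% and 6.73% of all genes, and on days 3 and 4 none was. Single members varied around this, with Fdps at 0.59, 0.3, 0.86 and 0.86. Hmgcs1, the synthase at the entry of the pathway, was at 462, 716, 801, 719 and 806 CPM. Lss, lanosterol synthase, was at 128, 187, 188, 188 and 211 CPM. In both, all 4 LIM days lay above day 0. The replicated set called 14 of the 24 higher and 1 lower, among them Hmgcs1 (log2 0.99, SE 0.15, adjusted p = 0.0028). The SREBP letters TCACNCCAC were found in 1 of 16 windows of the list (Hmgcs1, 6.25%) and in those of 1.44% of all genes with a window. Fatty acid synthesis genes had a median of -0.14 on day 4, with none of 10 past 2-fold.

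Basement membrane collagens rose on every step. Col4a1 was at 16.6, 61.1, 91.8, 117 and 138 CPM, 8.33-fold higher on day 4 (7.26 to 9.61), and Col4a2, which shares its promoter region, at 8.17, 19.1, 28.4, 36.0 and 42.2 CPM. The laminin gene Lama1 did not follow, at 73.7 CPM on day 0 and 40.5 on day 4. Of 17 genes of this list, 3 were higher (Col4a1, Col4a2 and Itga6) and none lower on day 4, beside 8.17% and 7.22% of all genes. Primitive endoderm also makes these collagens. Its list summed to 70.6 CPM on day 0 and to 207 CPM on day 4, with Col4a1 the 1 of 9 tested genes that was higher, and Foxa2, Sox7 and Sox17 were too low to be tested. Its markers Gata6 and Pdgfra went from 0.657 and 1.75 CPM on day 0 to 0.151 and 0.679 CPM on day 4, Gata4 was at 4.53 to 5.5 CPM, and Sox17 was at 0.306 to 0.791 CPM on all days. The part of such cells in the collagen values was not tested.

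Of 22 apical and polarity genes, 2 were higher on day 4 (Podxl and Cgn) and 2 lower (Cldn3 and Ocln), near the 8.17% and 7.22% of all genes. Podxl, an anti-adhesive apical sialomucin, was at 14.7, 33.3, 42.8, 48.3 and 54.7 CPM and Cgn, cingulin of the tight junction, at 10.2, 16.1, 16.4, 19.6 and 23.4 CPM. Podxl was higher on each day than on the day before, while Cgn was nearly flat from day 1 to 2. Both stood higher in the replicated set, by a log2 of 3.99 for Podxl (SE 0.19, adjusted p = 2.9e-05) and 3.3 for Cgn. Among cadherins, Cdh3, P-cadherin, rose at once, at 15.8, 73.1, 90.6, 97.8 and 88.6 CPM, while Cdh1, E-cadherin, eased from 1130 to 1110, 981, 841 and 726 CPM.

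Of 14 G1 cyclins and inhibitors, 2 were higher (Ccnd2 and Cdkn1c) and 2 lower (Cdk6 and Cdkn1a) on day 4, beside 8.17% and 7.22% of all genes. None of the 14 S and M phase genes passed 2-fold on any day, and both lists had a median of 0.19 on day 4. Cdk6, the partner of D cyclins, was at 82.8, 33.1, 23.3, 18.3 and 13.0 CPM, 6.38-fold lower on day 4 (5.43 to 7.53), with 49.5% of the change on day 1. Cdkn1c, encoding the inhibitor p57, rose from 0.949 to 3.16, 5.55, 12.3 and 19.6 CPM. Cdkn1a, encoding p21, fell from 283 to 158, 145, 115 and 124 CPM, past 2-fold on days 3 and 4. Cdk6, Cdkn1c and Cdkn1a moved the same way in the replicated set, by a log2 of -2.01, 3.46 and -1.37.

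Neural markers rose early. Of 7 tested of the 11 listed, 4 were higher on day 1, beside 5.34% of all genes, and 5 on day 4. The list summed to 146 CPM on day 0 and to 437 to 547 CPM in LIM. Nes, the intermediate filament nestin, was at 46.5, 152, 137, 160 and 151 CPM and Tubb3, a neuronal beta-tubulin, at 89.0, 263, 281, 354 and 348 CPM. Pax6 was at 1.09, 7.44, 10.8, 16.0 and 18.0 CPM, and Sox1 at 3.94, 8.94, 12.1, 10.7 and 9.51 CPM. Other members were at or near 0, with Hes5 at 0.158 CPM or less, and Olig3 was lower on day 4. Tubb3 was not called in the replicated set (log2 -0.02, SE 0.37, adjusted p = 0.98), whereas Nes and Pax6 were called higher.

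Of 11 stress response genes, 2, 3, 4 and 4 were higher on days 1 to 4, beside 5.34 to 8.17% of all genes, and none was lower. Chac1, an ATF4 target that degrades glutathione, was at 8.32, 16.8, 21.7, 29.7 and 31.3 CPM and Ddit3, encoding CHOP, at 7.59, 11.9, 12.1, 16.4 and 21.1 CPM. Asns, asparagine synthetase, an ATF4 target as well, took a single step in the other direction, from 941 to 499, 508, 493 and 527 CPM. Its 1.89-fold drop on day 1 (1.83 to 1.95) is below the 2-fold line. It was lower in the replicated set too (log2 -1.52, SE 0.19, adjusted p = 0.0013). Of the 11, that set called 2 higher and 1 lower. Chac1 was not called there, and the call of Ddit3 as higher was lost whichever L2i or LIM library was left out. Slc16a3, a lactate exporter, was the 1 gene of 17 in the glycolysis list past 2-fold, at 46.9, 80.2, 132, 151 and 195 CPM.

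Genes of the 2-cell-like state, which a small fraction of stem cells enters at a time, were mostly lower by day 3. Of 14, 2 were lower on day 1, 4 on day 2 and 11 on days 3 and 4, beside 4.47%, 5.04%, 7.15% and 7.22% of all genes, with medians of -0.45, -0.8, -1.5 and -1.77. Zscan4d was at 11.7, 7.44, 5.4, 2.06 and 3.1 CPM. The Zscan4 and Usp17l copies are nearly identical, so reads may be shared among them, and the 14 are not independent. None of the 13 tested in the replicated set was called in either direction by edgeR or by DESeq2, and at an unadjusted p under 0.05 edgeR gave 2 lower and 0 higher. Their median there was -2.14. Dazl, a germline RNA-binding protein gene, also fell late, at 110, 66.6, 71.0, 41.3 and 40.1 CPM.

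**Figure D4:**
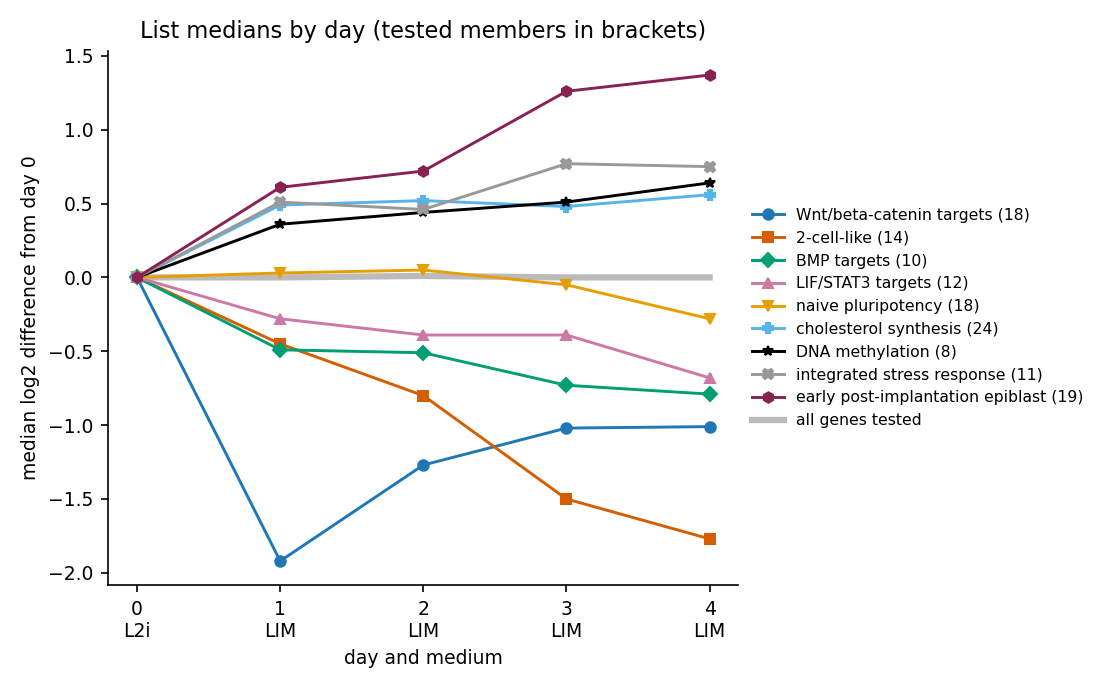
Median log2 difference from day 0 over the tested members of 9 gene lists, by day, with the number of members in brackets and all genes in grey. The Wnt target median is lowest on day 1 (-1.92), the epiblast and 2-cell-like medians are farthest from 0 on day 4 (1.37 and -1.77), and the cholesterol synthesis median is flat from day 1.

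Over all genes with a mean of 10 CPM or more and an established name (9100), the largest differences of day 4 were in genes of several kinds. The 6 highest were Lrtm2, Myrf, Crabp2, Lmx1b, Fgfr2 and Hhip. The 6 lowest were Trpm1, Nkx1-2, Gpx2, Ntn1, Epp13 and Axin2. These genes were ranked by day 4, so their size there is a description.

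Their courses differed. Hhip, which encodes a decoy receptor for Hedgehog ligands, was at 2.7, 43.2, 56.9, 52.7 and 52.1 CPM, with 93.6% of its log2 change on day 1. Lrtm2, a leucine-rich repeat membrane protein gene, was close to it with 84.7%, at 0.584, 12.5, 14.3, 19.7 and 21.0 CPM. Crabp2, a carrier of retinoic acid, went up more slowly, at 2.19, 20.5, 21.8, 42.7 and 61.9 CPM. Myrf, a membrane-bound transcription factor gene, was at 1.9, 18.0, 24.5, 54.1 and 58.7 CPM, and Lmx1b, a LIM homeobox gene, at 1.17, 14.7, 18.6, 31.6 and 33.3 CPM. Both stepped up again between days 2 and 3 and were then nearly flat. Fgfr2, an FGF receptor, followed at 2.41, 19.1, 27.6, 42.8 and 49.8 CPM. On day 1 the library labelled LFAI day 1 stood near all of these, for example at 42.6 CPM for Hhip and 13.7 CPM for Lmx1b. In the replicated set, Hhip was the 1 of the 6 not called (log2 1.56, SE 0.61, adjusted p = 0.11).

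Among the lowest, Ntn1, encoding the guidance cue netrin 1, was at 131, 10.0, 6.68, 6.8 and 5.59 CPM and Epp13, a secreted epididymal protein gene, at 53.7, 2.45, 1.13, 1.76 and 2.34 CPM. Both were near their floor on day 1. Trpm1, a cation channel gene, kept falling instead, at 95.9, 10.5, 3.38, 1.37 and 0.453 CPM, with 43.3% of its log2 change on day 1. Gpx2, a glutathione peroxidase gene, fell on every step, at 37.1, 9.34, 3.9, 2.21 and 0.528 CPM, and Ctsc, cathepsin C, at 73.3, 15.3, 8.18, 4.89 and 4.3 CPM. All 6 of the lowest were called lower in the replicated set.

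Genes with set patterns of time were listed next. The patterns differ in strictness and share the day 0 library, so their counts are not compared. Of the 9100 genes, 145 rose and 62 fell past 2-fold on day 1 and kept at least 80% of that on every later day. Late genes, within 0.5 log2 up to day 2 and past 2-fold on day 4, were 6 higher and 19 lower. Plcd1, a phospholipase C gene, was at 7.44, 9.26, 10.1, 12.6 and 22.6 CPM, and Evc2, a component of cilia in Hedgehog signalling, at 10.1, 12.4, 13.9, 23.6 and 25.0 CPM. Mep1b, a metalloprotease gene, was at 18.8, 24.1, 20.0, 11.4 and 6.57 CPM, and Ptges, a prostaglandin E synthase gene, at 30.9, 23.3, 24.5, 11.9 and 10.5 CPM.

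Only 5 genes rose past 2-fold on day 2 or 3 and lost more than 2-fold of that by day 4, and 4 of them peaked in the day 2 library alone. H2afz, a histone H2A variant gene, was at 35.0, 34.5, 82.4, 30.6 and 30.7 CPM, and mt-Atp8, a mitochondrially encoded ATP synthase subunit, at 52.5, 82.5, 142, 51.1 and 49.9 CPM. The zinc finger gene Zfp534 was at 15.5, 18.7, 57.8, 26.2 and 23.0 CPM, and Zfp808 at 27.4, 25.3, 61.7, 32.8 and 26.4 CPM. The day 2 library also had the largest share of mitochondrial genes, 1.63% against 1.13 to 1.39% in the other 4, and its part in these peaks was not tested. Cpe, carboxypeptidase E, had a broader hump, at 14.7, 28.8, 30.5, 19.9 and 13.6 CPM. A last pattern asked for genes of the 9100 past 2-fold on day 1 and on no later day, with at least 2-fold lost again by day 2. It held 2 higher genes, Mir6236 and Lars2, and 0 lower ones. Both belong to the ribosomal gene models described above.

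Set beside the several passages in LIM of the replicated set, the 4 days fell into different relations. For Otx2 the day 4 log2 difference was 3.39 and that of the set 4.44 (SE 0.37). For Dnmt3l they were 2.96 and 4.3, for Podxl 1.89 and 3.99 and for Sox11, a SoxC factor gene, 1.24 and 4.79, so the set lay above the course. Cdh3, at 2.47 and 1.18 (a call lost without CGR8 in L2i or R1 in LIM, at adjusted p = 0.051 and 0.065), and Hhip, at 4.2 and 1.56, lay the other way. Cdk6 was at -2.66 and -2.01. None of these differences between sets was tested, and medium age, coating and sequencing protocol cannot be told apart in them.

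**Figure D5:**
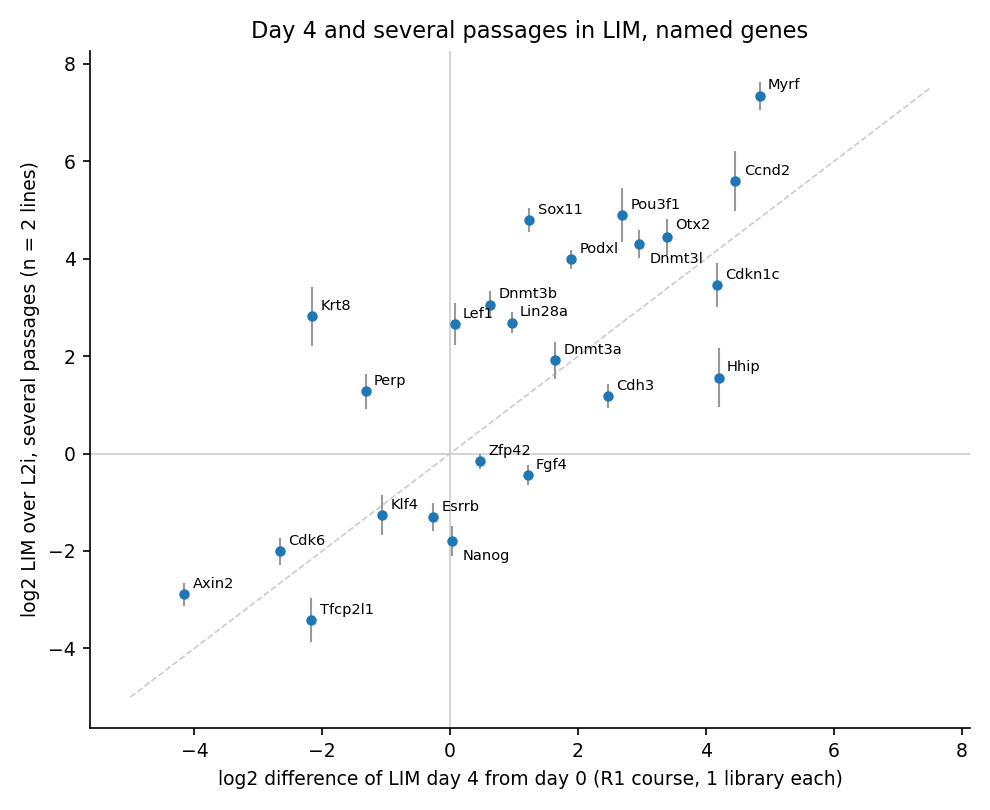
Log2 difference of LIM day 4 from day 0 in the R1 course (x axis, 1 library each) against log2 LIM over L2i after several passages in the set with both lines (y axis, edgeR estimate with bars of 1 SE, n = 2 lines), for named genes; the dashed line marks equal values. Podxl, Dnmt3b, Lin28a and Sox11 lie above the line, Nanog and Esrrb lie near 0 on the x axis and below 0 on the y axis, and Krt8 and Perp have opposite signs.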

How the data were processed

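The libraries were made with a stranded TruSeq mRNA kit, per the labels, a kind of kit that selects poly(A) RNA. The authors deposited raw counts per Ensembl gene for each of the 17 libraries of the series. The submitters' processing notes name HISAT2 2.0.4, HTSeq 0.6.1, DESeq2 1.10.1 and the build GRCm38; the role of each, the annotation release and the strand setting of the counting are not given in the sources used here. Each deposited count file lists 47729 genes and 5 summary entries. Reads that named no gene (48.7 to 50.4% in the course, mostly multiply aligned) stayed out of library sizes. No 2 libraries held identical counts. GENCODE M21 gave names for 47224 genes (98.94%). Without a known strand setting, reads of overlapping and antisense genes cannot be told apart.

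The 9 libraries of the R1 course, 4 of them in LFAI, were scaled together by TMM in edgeR 4.0.16 (R 4.3.3). Genes with 1 CPM in at least 1 of them were kept, and log2 CPM had a prior count of 2. CPM of the course libraries in the text use the scaled library sizes, and CPM of the set with both lines use the total gene counts. Ratio intervals are exact conditional binomial intervals at 95%, and folds against 0 counts use a floor of 3 counts per library. Both cover counting error alone, and reads without molecular identifiers are not independent molecules. Gene counts per library ran from 12889029 to 13584647. Level comparisons between genes are not made, since CPM is not per length.

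The set with both lines (8 libraries, 15525 genes after edgeR's filter by expression) was fitted with edgeR's quasi-likelihood test and Benjamini-Hochberg adjustment over all tested genes, without a block. Its p-values rest on the spread between 1 library each of R1 and CGR8. In this set, that spread was estimated jointly over L2i, LIM and the LFAI libraries of 35 hours and 4 days. The same replicate number is the same cell line there, and deviations of same-line libraries from their group means correlated between 0.04 and 0.4, with 2 lines only. The fit was tested on simulated data first.

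The members and the 29 gene lists were chosen with earlier results of these data known. Of the lists' names, 2 were matched through an alias. Named genes are a fixed panel, for each list at most 4 genes of 5 CPM or more on average, taken by the size of their day 4 difference, members needed to account for a count, and the largest differences by pattern of time over genes with a mean of 10 CPM and an established name. Alternatives were DESeq2 size factors, total counts, scaling without histone and small RNA genes, other prior counts and filters, a stricter fold, the day 1 library left out, and, for the set with both lines, a line block, DESeq2 1.42.0 and leaving out libraries. Scaling also without the 5 ribosomal gene models was added after seeing the data.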

Additional observations from a re-analysis of the deposited data

Results flagged for a closer look

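The panel, the list members picked by size and the genes picked by pattern of time were searched for opposite directions. In 3 of these genes, all LIM days of the course lay at least 0.3 log2 on one side of day 0. Both LIM libraries of the set with both lines lay on the other side of both L2i libraries, and edgeR called the gene there. Other genes named in the text were not searched. Among those, Id1 and Myc too were lower along the course and higher in the set. The keratin gene Krt8 was at 14.0, 4.83, 4.35, 4.66 and 3.02 CPM along the course, a log2 difference of -2.16 on day 4. In the set it was at 8.28 and 5.15 CPM in L2i and at 65.1 and 35.3 CPM in LIM (edgeR log2 2.82, adjusted p = 0.014). Perp, which encodes a desmosome-associated membrane protein, differed by -1.32 on day 4 and by 1.28 in the set (adjusted p = 0.038). Tfap2c, a transcription factor gene of trophoblast and germ cells, differed by 0.3 on day 4, with 0.3 to 0.58 over the LIM days, and by -1.07 in the set (adjusted p = 0.046). The difference between course and set was not tested, and coating, sequencing protocol and time in LIM cannot be told apart in it. The set's calls were lost when a library was left out, for Perp and Tfap2c whichever of the 4 it was, and for Krt8 without any but CGR8 in LIM.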

How the results depend on the processing

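The counts of genes past 2-fold and the shares for speed and plateau (17 values) stayed within 1.5 times, or within their interval, under DESeq2 size factors, total counts alone, scaling without histone and small RNA genes and scaling also without the 5 ribosomal gene models. Under each of these, all 330 log2 differences of named genes and lists kept their side of the 2-fold line or moved by under 0.3 log2. Low counts decided more. Without a filter, 1958 genes were higher and 1324 lower on day 1, 2023 and 1354 on day 2, 2116 and 1825 on day 3, and 2308 and 1847 on day 4, with 2668, 2585 and 2609 on the later steps; of the higher genes 50.5% reached at least 50% of the change on day 1 and 64.0% by day 2, and plateau shares were 53% (higher) and 50.2% (lower). With a filter of 5 CPM, the counts were 433 and 292, 612 and 371, 677 and 538, and 756 and 557, with steps of 191, 188 and 124; the higher genes reached 66.0% and 86.4%, the lower 73.8% by day 2, and plateaus were 81.5% and 70.4%. A prior count of 0.5 gave 991 genes on the step from day 3 to 4, 49.9% and 61.7% of lower genes past 50% of the change on day 1 and by day 2, and plateaus of 65.0% and 49.5%. A prior count of 5 gave steps of 358, 324 and 258, 81.6% of higher genes by day 2, 57.1% and 72.2% of lower genes on day 1 and by day 2, and plateaus of 77.1% and 67.6%. For genes past 4-fold on day 4, these shares were 63.1% and 84.5% (higher) and 62.2% and 77.7% (lower), with plateaus of 62.8% and 49.7%. The share reached by day 2 does not use the day 1 library.

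In the set with both lines, leaving out 1 library gave 934 to 1251 genes higher and 505 to 773 lower, where the lone library of a medium is assumed to vary like the other groups. Of 136 named genes tested, 76 were called and 53 kept the call in all 4 of these fits. With the line as a replicate block, 2023 genes were higher and 1480 lower, no named gene lost its call and 10 gained one. DESeq2 gave 1936 and 1400, its size factors within edgeR 1726 and 1239, and no filter 2333 and 1641 (the last within 1.5 times of 1750 and 1212). Depth limits genes under 1 CPM, and 1 library a day leaves the spread between cultures unmeasured.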
